A study of Mus musculus with 4 samples.

Results

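The 10 genes described here, Slc1a2, Slc1a3, Glul, Aqp4, Slc4a4, Aldh1l1, Aldoc, Ndrg2, Sox9 and Fgfr3, carry out or control the transport and metabolic work of astrocytes. Every probe set that the platform annotation assigns to 1 of these symbols alone was kept, which gave 31 of the 45037 probe sets tested and 10 of the 18193 genes named. All 10 genes were measured, by 1 probe set (Ndrg2) to 6 probe sets (Slc1a3). One further probe set names Slc1a2 together with Gm13872 and was not counted as a member.

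The study compared the brains of Bcas1 knockout and wild-type mice, 2 males of each genotype, on Affymetrix 3' arrays with 1 array per mouse. All 4 mice were C57BL/6 animals aged 8 to 9 weeks from matings of heterozygous parents, so knockout (-/-) and wild type (+/+) share strain, sex and breeding. Protocol labels name the whole brain and sample descriptions name the cerebrum. Sources used here do not name the disrupted part of Bcas1. Bcas1 encodes a protein of myelinating oligodendrocytes, and the comparison asks how the brain transcriptome differs without it.

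Astrocytes clear glutamate from synapses with sodium-driven transporters, turn it into glutamine and hand the glutamine back to neurons. They also move water, potassium and bicarbonate between synapses and blood vessels, and run much of the brain's folate and glycolytic metabolism. When the brain is injured, reactive astrocytes raise the filament protein Gfap and can lower transporters such as Slc1a2, so these genes are commonly read as a measure of astrocyte function. In RNA from whole tissue, fewer astrocytes and less RNA per astrocyte cannot be told apart.

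Each level is an RMA value in log2 units, in which a difference of 0.58 is 1.5-fold. The arrays had medians of 6.49 to 6.51. Bcas1 itself, by its brightest probe set, measured 12.17 and 12.21 in the wild types and 11.05 and 10.75 in the knockouts, differing by -1.29 (limma: SE 0.12, adjusted p 0.74), while its 2 dim probe sets were higher in the knockout. Without the position of the disruption, these values do not check the labels. The second knockout array also held transcripts of nasal tissue: the 7 genes of a nasal mucosa list had a mean level of 7.63 there and 5.08 to 5.29 on the other 3 arrays. Cerebellar genes were bright on all 4 arrays, with a list mean of 11.52 to 11.58.

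None of the 10 astrocyte genes passed the test between the genotypes, and the differences of their brightest probe sets ran from -0.025 to 0.18. Of the 31 probe sets, 0 were higher and 0 were lower in limma at an adjusted p of 0.05, and all 31 had the same adjusted p of 1. Across all probe sets 0% were called higher and 0.00444% lower, so this count alone says little about these genes. At an unadjusted p of 0.05 limma likewise gave 0 of the 31, where it gave 1.82% of all probe sets higher and 1.61% lower. That unadjusted count was 2 of the 31 with the replicate number as a block (4.56% of all probe sets), 2 without the first knockout mouse (7.78%) and 1 without the second (6.55%), each a probe set of Slc1a2 or Slc1a3. The median difference, knockout minus wild type, was 0.0050 over the 31 probe sets and 0 over all probe sets. The median size of a difference, whatever its sign, was 0.040 for the 31 and 0.065 for the table. Dim probe sets make up less of the 31 than of the table. Among probe sets at or above the table median this size was 0.0325 for the members and 0.050 for all.

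The intervals of the differences bound how large a difference in array signal these data could have missed. How signal follows RNA amount was not tested. The brightest probe sets of Slc1a2, Glul and Aldoc lay near the top of the table, at the 99.8th, 99.5th and 99.9th percentiles. For 30 of the 31 probe sets the 95% interval of the difference in limma lay within 1.5-fold in either direction, as it did for 92.3% of all probe sets. Among probe sets at or above the table median it did so for all 24 members and for 95.7% of the table. The lower end for 1 Slc1a3 probe set (1443749_x_at), at -0.58, lay just inside that limit. Over the brightest probe set of each of the 10 genes, the intervals reached no lower than -0.34 and no higher than 0.38, which are 1.26-fold and 1.30-fold. Each group holds 2 mice, and the SEs draw on a variance pooled over the table, so these bounds depend on that pooling.

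**Figure D1:**
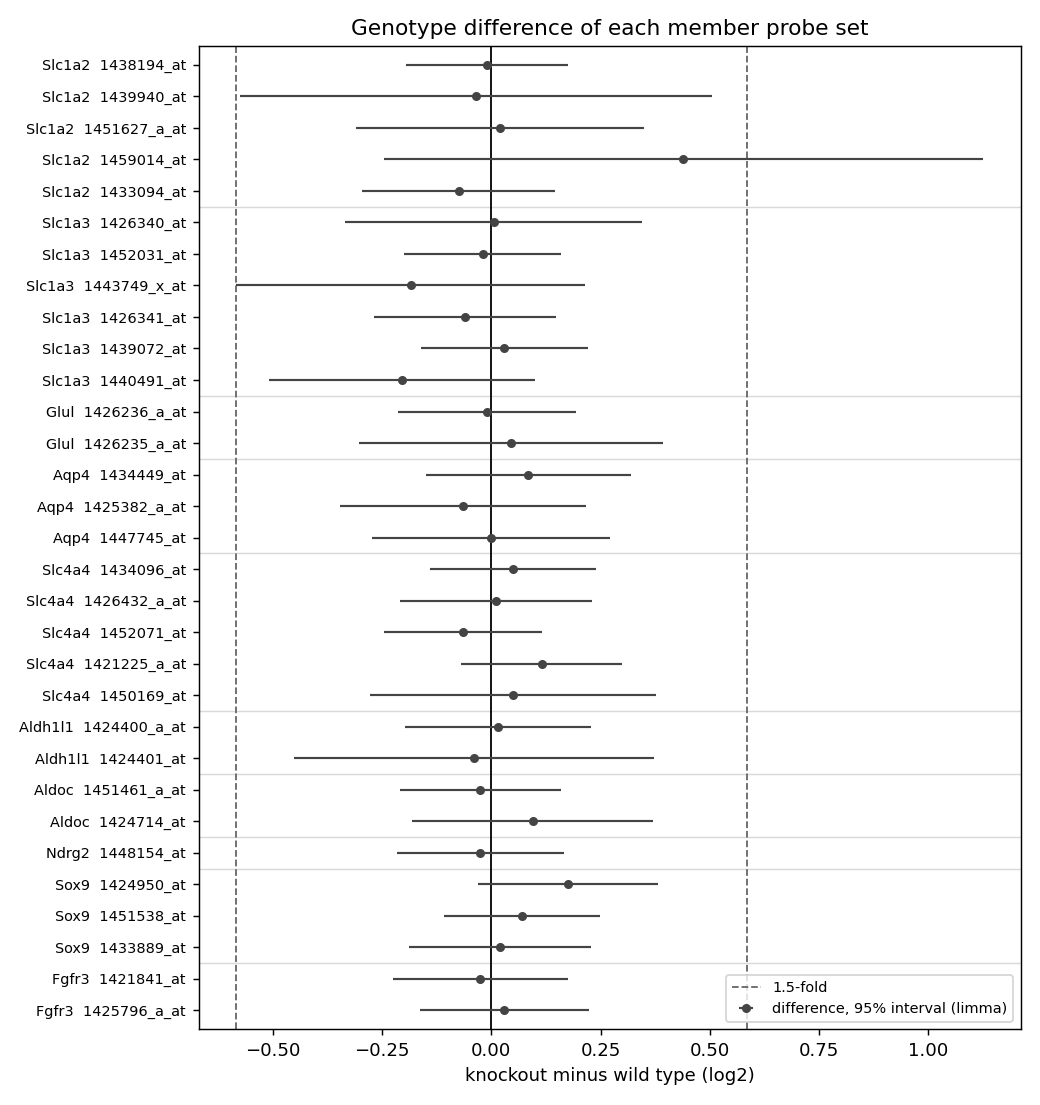
Knockout minus wild type (log2, x axis) for each of the 31 probe sets (y axis, grouped by gene and ordered by brightness), with the 95% interval from limma as a bar and dashed lines at 1.5-fold. All intervals cross 0, and 1 of them, of a dim Slc1a2 probe set at 0.44, reaches past a dashed line.

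The first group is glutamate uptake. Slc1a2 and Slc1a3 encode the astrocytic glutamate transporters GLT1 and GLAST, and Glul encodes glutamine synthetase, the enzyme that converts the glutamate they take up. The sequences before their RefSeq start sites are shown because these genes serve 1 pathway while the listed sequences are unlike in composition. Whether the listed starts are the ones used in astrocytes was not tested. Slc4a4 is shown as a gene with 2 start sites whose probe sets differ in sign. Each line gives the 120 bases before the start site in assembly GRCm38.p6, 5′ to 3′ on the strand of the gene, with the motifs CCAAT and GGGCGG in capitals on either strand.
Slc1a2, chr2:102706318-102706437, plus strand: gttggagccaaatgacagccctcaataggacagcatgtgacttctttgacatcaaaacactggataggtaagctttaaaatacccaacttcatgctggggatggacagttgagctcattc
Slc1a3, chr15:8710808-8710927, minus strand: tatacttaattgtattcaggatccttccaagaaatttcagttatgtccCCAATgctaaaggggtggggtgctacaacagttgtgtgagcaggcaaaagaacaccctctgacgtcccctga
Glul, chr1:153899809-153899928, plus strand: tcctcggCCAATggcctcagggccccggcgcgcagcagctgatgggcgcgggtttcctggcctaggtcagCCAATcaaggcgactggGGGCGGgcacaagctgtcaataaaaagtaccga
Slc4a4, upstream start, chr5:88887140-88887259, plus strand: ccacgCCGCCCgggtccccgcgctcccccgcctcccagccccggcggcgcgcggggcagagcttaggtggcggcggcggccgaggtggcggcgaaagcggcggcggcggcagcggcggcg
Slc4a4, downstream start, chr5:89027846-89027965, plus strand: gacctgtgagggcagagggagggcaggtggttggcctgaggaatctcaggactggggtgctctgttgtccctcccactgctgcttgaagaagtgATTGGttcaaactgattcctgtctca

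Over 250 bases before the listed start, Slc1a2 had a GC content of 44.8% with 1 CpG and Slc1a3 had 44.8% with 2, whereas Glul had 64.8% with 15. The upstream start of Slc4a4 had 82% with 44 CpGs and the downstream start 48.8% with 3. Start sites were listed for 8 of the 10 genes, 13 in all, with a median GC content of 60.8% against 52.4% over 32817 promoters. Some genes have several of these starts, so the 13 are not independent. On either strand of the same 250 bases, GGGCGG was found in 9 of the 13 member promoters and in 32.7% of all promoters, and CCAAT in 5 of the 13 and in 33.8%. TATAAA was found in 2 of the 13 and in 12.4% of all, and ACAATG, a core motif of SOX factors, in 0 of the 13 and in 10.7%. A match is a run of letters in this window and no evidence of binding.

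Slc1a2, which clears most of the glutamate in the forebrain, measured 13.45 and 13.43 in the wild types and 13.46 and 13.40 in the knockouts by its brightest probe set (1438194_at). The genotypes overlapped completely, with a difference of -0.010 (SE 0.071, 95% interval -0.20 to 0.18). In signal, the ends of that interval are 1.15-fold lower and 1.13-fold higher. The next probe set (1439940_at) was level in wild type, at 8.11 and 8.10, and split in the knockout, at 8.37 and 7.77. Its difference of -0.035 (SE 0.21) is the mean of 1 knockout mouse above and 1 below both wild types.

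The other 3 Slc1a2 probe sets were dimmer. Probe set 1451627_a_at measured 7.70 and 7.94 in the wild types and 7.73 and 7.95 in the knockouts, so that the mice numbered 1 were low and those numbered 2 were high in both genotypes. Probe set 1459014_at, below the table median of 6.49, gave the largest difference of all 31, 0.44 (SE 0.26, 95% interval -0.25 to 1.13). It measured 5.20 and 5.71 in the wild types and 5.60 and 6.19 in the knockouts, and the first knockout mouse lay between the wild types. Probe set 1433094_at, also dim, measured 5.31 and 5.33 in the wild types and 5.32 and 5.17 in the knockouts. The probe set shared with Gm13872 differed by -0.040 (SE 0.080).

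Slc1a3, the transporter of astrocytes and of cerebellar Bergmann glia, has the most probe sets, and 5 of its 6 lay at or above the table median. Probe set 1426340_at measured 11.16 and 11.19 in the wild types and 11.35 and 11.01 in the knockouts, differing by 0.0050 (SE 0.13). Both wild types lay between the knockouts. Probe set 1452031_at measured 10.75 in both wild types and 10.72 and 10.74 in the knockout; the genotypes did not overlap, by a margin of the table's rounding, and they overlapped once the arrays were centred on their medians or quantile-normalized again. Its difference was -0.020 (SE 0.069).

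In a further Slc1a3 probe set, 1443749_x_at, the second knockout mouse alone was low, at 10.39 against 10.77 to 10.81 in the other 3 mice. The difference of -0.19 (SE 0.15) was 0.025 without that mouse and -0.40 without the first knockout mouse. The _x_at ending marks probes that can also bind other transcripts. In 1426341_at the values were 10.57 and 10.65 in the wild types and 10.50 and 10.60 in the knockouts, with a difference of -0.060 (SE 0.080). Probe sets 1439072_at and 1440491_at, at the table median and below it, differed by 0.030 and -0.21 with overlapping genotypes.

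Glul, the glutamine synthetase of astrocytes, measured 13.04 and 13.10 in the wild types and 13.11 and 13.01 in the knockouts by 1426236_a_at, a difference of -0.010 (SE 0.078, 95% interval -0.21 to 0.19). Both wild types lay between the knockouts. In 1426235_a_at the values were 10.37 and 10.70 in the wild types and 10.52 and 10.64 in the knockouts, so both knockouts lay between the wild types.

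**Figure D2:**
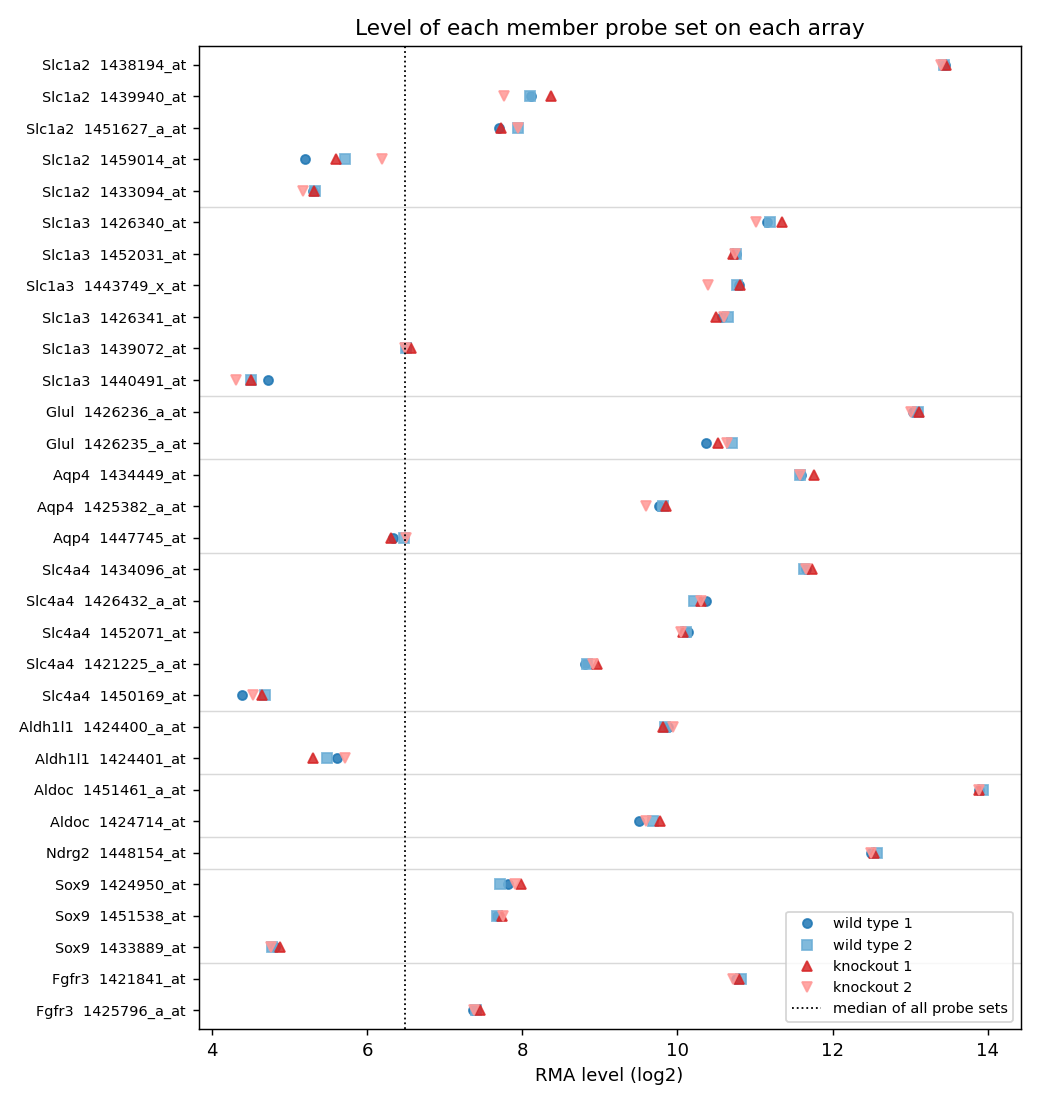
RMA level (log2, x axis) of each of the 31 probe sets (y axis) on each of the 4 arrays, 1 marker per mouse, with the median of all probe sets, 6.49, as a dotted line. Probe sets of 1 gene differ widely in level because probes differ in response, so levels compare between arrays only, and 24 of the 31 lie at or above the dotted line.

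The second group is water and bicarbonate transport. Aqp4, the water channel of astrocytic endfeet around blood vessels, measured 11.59 and 11.58 in the wild types and 11.76 and 11.58 in the knockouts by 1434449_at. Only the first knockout mouse was high, and the difference was 0.085 (SE 0.090). In 1425382_a_at, at 9.76 and 9.82 in the wild types and 9.85 and 9.60 in the knockouts, the sign turned, with a difference of -0.065 (SE 0.11). The dim 1447745_at had the same mean of 6.41 in both genotypes.

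Slc4a4 encodes an electrogenic sodium bicarbonate cotransporter that regulates pH in and around astrocytes, and its 5 probe sets pointed both ways. Probe set 1434096_at measured 11.66 and 11.63 in the wild types and 11.73 and 11.66 in the knockouts, differing by 0.050 (SE 0.073). Probe set 1421225_a_at measured 8.81 and 8.83 in the wild types and 8.96 and 8.91 in the knockouts. Both knockouts were higher there, with a difference of 0.12 (SE 0.071, 95% interval -0.069 to 0.30, adjusted p of 1 in limma). Probe set 1452071_at was the reverse, at 10.13 and 10.11 in the wild types and 10.07 and 10.04 in the knockouts, differing by -0.065 (SE 0.069). The remaining 2 probe sets differed by 0.010 and 0.050 with overlapping genotypes. Sources used here do not say which of its 2 start sites each probe set reads.

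The third group is metabolic enzymes. Aldh1l1, a folate enzyme widely used to mark astrocytes, measured 9.88 and 9.84 in the wild types and 9.81 and 9.94 in the knockouts by 1424400_a_at, a difference of 0.015 (SE 0.081). Both wild types lay between the knockouts. Its dim probe set 1424401_at repeated that order, at 5.61 and 5.49 in the wild types and 5.30 and 5.72 in the knockouts. Aldoc, the brain isoform of the glycolytic enzyme aldolase, measured 13.89 and 13.94 in the wild types and 13.89 in both knockouts by 1451461_a_at. Its difference of -0.025 (SE 0.070) had an interval of -0.21 to 0.16. By 1424714_at Aldoc measured 9.51 and 9.68 in the wild types and 9.78 and 9.60 in the knockouts, differing by 0.095 (SE 0.11) with overlapping genotypes.

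The fourth group is regulators. Sox9, a transcription factor of the astrocyte lineage, was the gene whose brightest probe set differed most, and it did not pass the test. By 1424950_at it measured 7.82 and 7.72 in the wild types and 7.98 and 7.91 in the knockouts. Both knockouts were above both wild types, with a difference of 0.18 (SE 0.079, 95% interval -0.032 to 0.38), 1.13-fold, an unadjusted p of 0.081 and an adjusted p of 1 in limma. The same order held in 1451538_at, at 7.67 and 7.68 in the wild types and 7.74 and 7.75 in the knockouts, differing by 0.070 (SE 0.068). The dim 1433889_at overlapped, with a difference of 0.020 (SE 0.080). Leaving out any 1 mouse gave 0.13 to 0.23 for the first difference and 0.065 to 0.075 for the second. Because the genotypes were separated in both probe sets, these differences had to stay positive.

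Fgfr3, a fibroblast growth factor receptor of astrocytes and their precursors, measured 10.75 and 10.82 in the wild types and 10.80 and 10.72 in the knockouts by 1421841_at, a difference of -0.025 (SE 0.077). Its second probe set, 1425796_a_at, gave 0.030 (SE 0.074), also with overlapping genotypes. Ndrg2, a stress-responsive protein enriched in astrocytes, measured 12.50 and 12.57 in the wild types and 12.53 and 12.49 in the knockouts, differing by -0.025 (SE 0.073). None of these 3 probe sets separated the genotypes.

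Counted over all members, both knockouts lay above both wild types in 3 of 31 probe sets and below both in 2. The 3 were 1424950_at and 1451538_at of Sox9 and 1421225_a_at of Slc4a4, and the 2 were 1452031_at of Slc1a3 and 1452071_at of Slc4a4. Across all probe sets 13.9% were above and 13.2% below. The members' shares were thus no larger than those of the table. With 2 against 2 mice an exact permutation test cannot give a two-sided p below 0.333, so no single separation is a test.

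Differences between mice of 1 genotype were mostly larger than the difference between genotypes, in the members as in the table. This comparison sets the larger of 2 gaps between single mice against a difference of group means, which favours the gap. In 26 of the 31 probe sets the gap between the 2 mice of at least 1 genotype exceeded the genotype difference, as it did in 80.1% of all probe sets. The median gap was 0.050 between the wild-type mice and 0.12 between the knockout mice, against 0.080 and 0.12 over the table. At or above the table median the gaps were 0.045 and 0.080 for the members, against 0.060 and 0.10 for all probe sets. The first knockout array was the highest of the 4 for 14 members (45.2%), against 21.1% of all probe sets. The second knockout array was the lowest for 13 members (41.9%), against 23.8% of all probe sets. These shares over all probe sets include dim ones, whereas 24 of the 31 members were at or above the table median.

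Probe sets of 1 gene read shared transcripts, so the 2 knockout mice were also compared by gene. By the brightest probe set the first knockout mouse was above the second for 8 of the 10 genes, below it for Aldh1l1 and equal to it for Aldoc. Over all genes it was above in 34.6%, a share that includes dim genes, whereas all 10 of these probe sets were at or above the table median. Over all probe sets at or above that median it was above in 43.6%. The gaps were small, with a median of 0.070 over the 10 genes. The second knockout array is the one that held nasal transcripts. Oligodendrocyte marker genes ran in the same direction, with a list mean of 11.72 in the first knockout and 11.55 in the second, against 11.59 and 11.58 in wild type. Of the 102 genes of the 7 related lists, the first knockout was above the second for 38 (37.3%) and below it for 61, the other way from the members and near the share over all genes. The counts were 3 above and 12 below among the 17 genes of glutamate and amino acid handling, and 5 and 17 among the 23 of energy, lipid and antioxidant metabolism. Relatives of the members had 5 and 15 among 20, water, ion and junction partners 7 and 8 among 15, and FGF receptor targets 4 and 4 among 8. Like the members went astrocyte identity and signalling, with 10 and 6 among 16, and the neuronal side of the glutamate cycle, with 4 and 1 among 5. Of the 11 reactive astrocyte genes the first knockout was above for 3 and below for 8. Among markers of other cells it was above for 6 and below for 3 of 9 neuron genes. The counts were 2 and 5 of 7 microglial genes, and 1 and 6 of 7 endothelial genes. The part of the nasal or the oligodendrocyte transcripts in the spread of the astrocyte genes was not tested. These gaps compare single mice and carry no test.

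**Figure D3:**
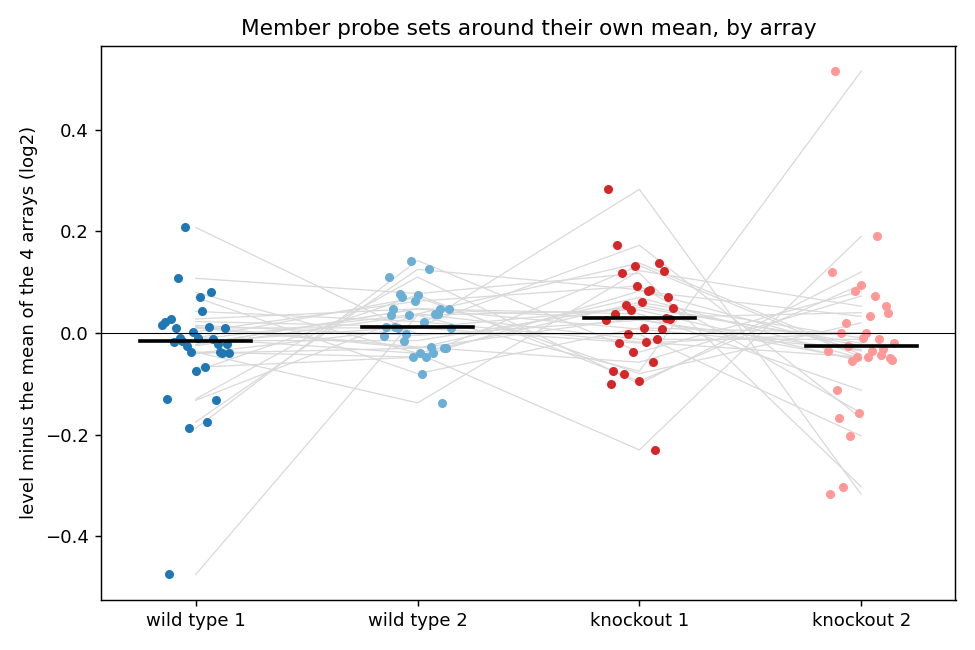
Level of each member probe set minus its own mean over the 4 arrays (log2, y axis), by array (x axis), with 1 point per probe set, grey lines joining the points of a probe set and a black bar at the median of the 31. The genotypes overlap, and most points of the first knockout array lie above 0 and most of the second below it.

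The genes that work beside the members were read from 7 lists with 110 genes, of which 102 were measured, each by its brightest probe set. Of the 102, 0 rose and 0 fell in limma at an adjusted p of 0.05, and 0 had an unadjusted p under 0.05; over all genes limma called 0% higher and 0.0055% lower, and at the unadjusted threshold 1.68% and 1.07%. Their median difference was 0.0050, the same as over all genes. Both knockouts were above both wild types for 17 of them and below for 14, where over all genes 15.5% were above and 12.8% below. The same shares over all genes stand beside the counts of each list below. The examples named below were the genes with the largest differences among bright genes with separated genotypes, so their size follows from that choice.

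Of 17 measured genes of glutamate and amino acid handling, 4 were above and 2 below, with a median difference of -0.015. Slc1a4, a transporter of neutral amino acids including serine, measured 8.58 and 8.61 in the wild types and 8.75 and 8.79 in the knockouts, differing by 0.18 (SE 0.070). Psat1, of serine synthesis, differed by 0.090 (SE 0.074), and Slc38a5, a glutamine transporter, by -0.12 (SE 0.072). On the neuronal side of the cycle 5 genes were measured, with a median of 0.0050. Slc17a7, which loads glutamate into vesicles, was at -0.090 (SE 0.074) and was the only one of the 5 whose genotypes were separated.

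Partners in water, ion and junction transport, 15 of them measured, had a median difference of 0.035, with 2 above and 2 below. Slc14a1, a urea transporter, measured 7.82 and 7.91 in the wild types and 7.65 and 7.75 in the knockouts, differing by -0.17 (SE 0.081). Dmd, whose product anchors Aqp4 at endfeet, differed by 0.070 (SE 0.074), and the chloride cotransporter gene Slc12a2 by 0.050 (SE 0.070). Kcnj10, the potassium channel that often accompanies Aqp4, gave -0.015 and Gja1, the main astrocytic connexin, -0.030, both with overlapping genotypes; these 2 were chosen after their values were seen.

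Energy, lipid and antioxidant genes, 23 measured, had a median of 0.025 with 2 above and 1 below. The metallothionein gene Mt2 differed by 0.10 (SE 0.090), most of it in the second knockout mouse, at 12.55 against 12.37 in the first and 12.36 in both wild types. Acaa2, of fatty acid oxidation, differed by 0.090 (SE 0.082) and Plpp3, a lipid phosphatase, by -0.060 (SE 0.071). The 16 astrocyte identity genes had a median of -0.025, with 3 above and 3 below. Among them Gabrg1, a GABA receptor subunit, was at 0.095 (SE 0.073), Chrdl1, a BMP antagonist, at -0.090 (SE 0.078) and the transcription factor gene Nfib at -0.070 (SE 0.072).

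Target genes of FGF receptor signalling had the lowest median of the lists, -0.075 over 8 measured genes. Whether they follow Fgfr3 in these brains was not tested. Of the 8 genes, 1 was above and 4 were below, where over all genes 15.5% were above and 12.8% below. Spry4 measured 6.70 and 6.83 in the wild types and 6.61 and 6.49 in the knockouts, differing by -0.22 (SE 0.089). Also below were Spred1 at -0.13 (SE 0.077), Spred2 at -0.12 (SE 0.071) and Dusp6 at -0.085 (SE 0.075). Spred2 and Dusp6 were named after their values were seen. The 1 above was Spry1, at 6.78 and 6.75 in the wild types and 6.93 and 6.92 in the knockouts, differing by 0.16 (SE 0.069). The other 3 genes overlapped. In limma their adjusted p was 1.

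Among 20 measured relatives of the members, 6 were above and 1 below, where over all genes 15.5% were above and 12.8% below. Their median difference was 0.025. Ndrg1, the relative of Ndrg2 that is known from oligodendrocytes, measured 10.73 and 10.81 in the wild types and 10.91 and 10.99 in the knockouts, differing by 0.18 (SE 0.078). Sox10, the oligodendrocyte relative of Sox9, differed by 0.13 (SE 0.080), and Aldh1l2, the mitochondrial relative of Aldh1l1, by 0.13 (SE 0.085). The neuronal glutamate transporter gene Slc1a1 was at -0.030 (SE 0.072), chosen after its values were seen.

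Gfap, the filament protein of reactive astrocytes, had a larger difference than the brightest probe set of any member. It measured 8.64 and 8.77 in the wild types and 9.01 and 8.97 in the knockouts, differing by 0.29 (SE 0.081, 95% interval 0.072 to 0.50), with an unadjusted p of 0.019 and an adjusted p of 1 in limma. The 11 genes of the reactive astrocyte list had a median difference of 0.0050, with 3 above and 2 below. Whether Gfap and the members differ in their response was not tested.

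**Figure D4:**
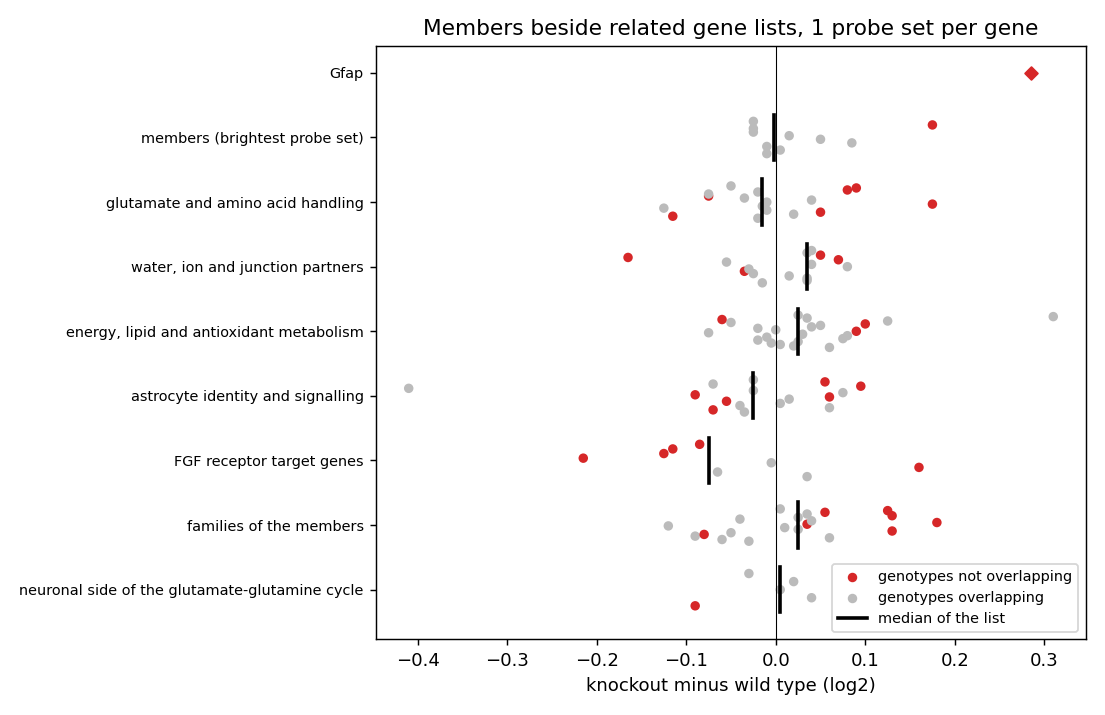
Knockout minus wild type (log2, x axis) of the 10 members, of the genes in the 7 related lists and of Gfap (y axis), each gene by its brightest probe set, with red points where the genotypes do not overlap and a black bar at the median of each list. The medians lie between -0.075 (FGF receptor targets) and 0.035 (water, ion and junction partners), and Gfap lies at 0.29.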

How the data were processed

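The authors deposited 1 log2 level per probe set and array, made with RMA according to the submitters' processing notes (software and parameters not given in the sources used here). Per the labels' protocols, biotinylated RNA was made from 100 ng of total RNA with a 3' IVT kit. RMA makes the arrays' distributions alike and compresses differences of dim probe sets, and no detection calls were used. The table has 45101 rows, rounded to 2 decimals; 64 control probe sets were left out. The platform annotation of 2016 named 1 gene for 34945 probe sets, several for 932 and none for 9160; updating symbols by Entrez number through RefSeq GRCm38.p6 changed 0.

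The genotypes were compared with limma 3.58.1 (R 4.3.3; lmFit, eBayes; two-sided) over 45037 probe sets with Benjamini-Hochberg adjustment. SEs and 95% intervals use 2 residual and 2.74 prior degrees of freedom. The script was tested on simulated data. Labels call each array a separate mouse. The precision is limited by the number of arrays. Members, lists, alternatives and the rule for named genes (all members; of each related list up to 3 separated bright genes with the largest difference; Gfap; Bcas1) were chosen with earlier results of these data known. A bright gene is at or above the median level of 6.49. Of the 11 marker lists, those of neurons, microglia, endothelium, ependyma, choroid plexus, pituitary and oligodendrocyte precursors had median differences of -0.0050, -0.010, 0.055, 0.030, 0.080, 0.18 and -0.023. Scanner files were not used here.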

Additional observations from a re-analysis of the deposited data

How the results depend on the processing

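Of the 12 alternatives, those that keep all 4 mice called 0 member probe sets in limma, and 0 genes of the related lists where these were run. Where calls over the table were counted, these settings called 0 to 10 of all probe sets. The 0 calls among the members therefore say little about these genes. The median difference over the members was -0.0025 to 0.015 under the other settings and -0.020 to 0.025 with 1 mouse left out. Both knockouts were above both wild types for 3 probe sets and below for 2; by the brightest probe set or the mean per gene these counts, out of 10, were 1 and 0 (15.5% and 12.8% of all genes by the brightest, 15.3% and 13.1% by the mean). They were 4 and 1 with median-centred arrays (15.8% and 11.3% of all probe sets) and with repeated quantile normalization (15.3% and 13.3%). With 1 mouse left out they ran from 5 to 15 above and 4 to 14 below. Without the second knockout mouse, 15 were above and 6 below (29.4% and 37.1% of all probe sets), and without the first 8 were above and 14 below (38.6% and 31.2%). Without the first wild-type mouse 5 were above and 9 below (25.8% and 27.2%), and without the second 9 and 4 (29.2% and 28.1%). In every fit without 1 mouse, 10 of the 31 differences kept their sign, among them the separated ones, which had to. That share was not counted over all probe sets, so it is not a trait of the members. The filter, the variance model and the block leave each fitted difference unchanged, so they cannot alter a sign. Median-centring and repeated quantile normalization could, and turned 0 of the 31 to the opposite sign. In the fits without 1 mouse, the lone mouse of a genotype is assumed to vary like the pair of the other. The replicate numbers name mice and are not stated to pair them. The differences of mouse 1 from mouse 2 correlated weakly between the genotypes (r = 0.24 over 45037 probe sets, which are not independent); among the members, mouse 1 was above mouse 2 in 21 and below in 9 in the knockouts, and above in 12 and below in 17 in the wild types. With the replicate number as a block 0 members were called (lowest adjusted p of 0.85 in limma), and 0 of all probe sets, against 2 without the block. The block cannot change the separated counts of 3 and 2 or the median of 0.0050. A trend in the variance gave 10 calls over the table. The median width of a member's unadjusted 95% interval was 1.16-fold to either side. This is no limit for a call at an adjusted p of 0.05, where limma left the -1.29 of Bcas1 uncalled (adjusted p 0.74).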
